A study of Drosophila melanogaster with 6 samples.

Results

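The transcripts examined were those of 10 Notch pathway genes in sorted intestinal stem cells (ISCs) of the adult Drosophila midgut. They comprised the ligand Dl, the ligand-activating ubiquitin ligase neur, the receptor N, the DNA-binding factor Su(H), its co-activator mam and co-repressor H, and 4 target genes, E(spl)mbeta-HLH, E(spl)malpha-BFM, E(spl)m3-HLH and klu. The genes were taken from the deposited gene table of 8470 genes by exact symbol, with capitals respected. By symbol 9 of the 10 were found, and Dl, which the table names Delta, was found by its gene identifier (FBgn0000463), so that all 10 were included. Of the 10, mam fell and E(spl)m3-HLH rose in ISCs with NF-YA RNAi, and the other 8 did not pass the threshold. Over 14 alternative analyses, mam was called in all 14 and E(spl)m3-HLH in 8.

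The study depleted NF-YA, a subunit of the CCAAT-binding transcription factor NF-Y, in ISCs and compared these cells with control ISCs in 3 libraries each. Both groups carried esg-Gal4 with a temperature-sensitive Gal80, UAS-2xYFP and Su(H)GBE-Gal80. The driver was combined with an NF-YA RNAi transgene in one group and with the wild-type strain Oregon R in the other, so the controls did not carry an RNAi transgene. According to the labels, female flies were kept for 3 days at 18 °C and 3 days at 29 °C, the temperature that permits RNAi, and then for 3 days on holidic (chemically defined) food, whereas the methods give 3 days of holidic food at 29 °C. YFP-positive midgut cells were sorted, and their mRNA was read as paired ends of 75 bp. Libraries carry here the numbers of their library names, which are 1, 2 and 3 for control and 2, 4 and 5 for NF-YA RNAi. The esg enhancer is active in both progenitor types of the midgut, and Su(H)GBE-Gal80 keeps the driver off where the Notch reporter is active, so the sorted population is itself defined by Notch output. In these bulk samples, fewer cells of a type and less RNA per cell cannot be told apart.

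In the midgut, Delta on the surface of an ISC activates Notch on its daughter, the enteroblast, which then matures into an absorptive enterocyte. Activated Notch is cleaved, and its intracellular part enters the nucleus, binds Su(H) and recruits Mastermind to switch on target genes. Without it, Su(H) is held by Hairless, which brings the co-repressors Groucho and CtBP. The classical targets lie in the E(spl) complex, a cluster of genes for basic helix-loop-helix (HLH) repressors and for Bearded family (BFM) proteins. HLH repressors oppose proneural factors, and Bearded family proteins inhibit Neuralized, the ubiquitin ligase that makes Delta competent to signal.

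The libraries held between 77092609 and 122269943 estimated counts, and RNAi library 5 was the smallest. Expression values are CPM (each library's counts scaled to the same total of 1000000, with library sizes normalized by TMM), where 3 counts equal 0.0246 to 0.0378 CPM. The quasi-likelihood test of edgeR was applied, with Benjamini-Hochberg adjustment over 9080 genes, and an adjusted p under 0.05 is called a change. All 10 Notch genes passed the filter on low counts, the lowest with 253 counts in a library. The target of the RNAi, Nf-YA, had 16.0, 19.7 and 23.6 CPM in control, against 3.58, 4.92 and 4.30 CPM under NF-YA RNAi, which gave a log2 fold change of -2.21 (adjusted p = 0.000203, standard error 0.20). Nf-YA shares 144 exonic bases with Bet3 on the same strand. The labels do not say whether the samples came from separate crosses, and the methods call them independent samples. P-values therefore measure the spread between these libraries only.

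Across all genes, 562 of 9080 (6.19%) rose and 728 (8.02%) fell in NF-YA RNAi, 14.2% in either direction. Of the 10 Notch genes, 1 rose and 1 fell (20.0%), a share that with 10 genes is near this background. The groups were apart, with no overlap between libraries, in 4 of the 10 (E(spl)m3-HLH, N, neur and mam), against 35.9% of all genes tested. The fitted log2 fold change was negative in 9 of the 10, with a median of -0.20. Over all genes the median was -0.02, with 4692 negative and 4388 positive. Among the 9, klu (-0.002), H (-0.033) and E(spl)mbeta-HLH (-0.068) were close to 0. With counts scaled by library size only, klu, H and E(spl)mbeta-HLH were positive (0.089, 0.055 and 0.022). At an unadjusted p under 0.05 (edgeR), 1 Notch gene was higher and 4 were lower (N, neur, mam and E(spl)malpha-BFM). At the same threshold, 1217 of all 9080 genes were higher and 1442 were lower.

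**Figure D1:**
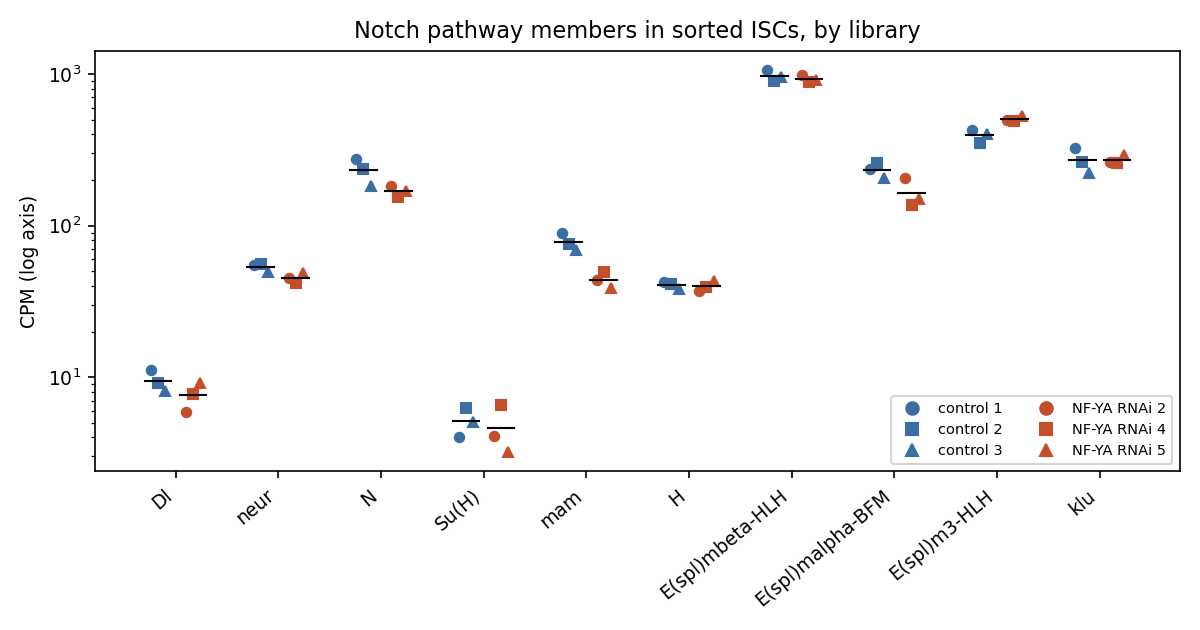
Expression of the 10 Notch pathway genes in CPM on a log axis, with 1 point per library and a bar at the mean of the 3 libraries of each group. The points of mam lie apart between the groups (68.6 to 89.8 CPM in control, 38.7 to 49.3 CPM in NF-YA RNAi), those of E(spl)m3-HLH lie apart in the other direction, and those of klu, H and E(spl)mbeta-HLH overlap.

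The ligand Delta is the surface marker by which ISCs are commonly recognized. Dl (3R, 19302731 to 19326217, minus strand, BDGP6.54) had 11.2, 9.12 and 8.07 CPM in control, against 5.86, 7.78 and 9.11 CPM under NF-YA RNAi. The groups overlapped, since RNAi library 5 lay between control libraries 2 and 3. The means were 9.47 ± 1.60 and 7.58 ± 1.63 CPM (SD, n = 3 each). The log2 fold change of -0.32 had a 95% interval from -0.79 to 0.15 and did not pass the threshold (edgeR, adjusted p = 0.360). The interval therefore holds both no difference and a level of 57.8% of control at its lower end. Without control library 1 the log2 fold change was -0.18 and without RNAi library 2 it was -0.17, and it was not called in any of the 14 alternatives. The second Notch ligand of flies, Ser, had at most 0.145 CPM in any library and did not pass the filter.

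The ubiquitin ligase Neuralized promotes endocytosis of Delta in the signal-sending cell. The gene neur (3R, 9020348 to 9039471, minus strand) had 54.8, 55.9 and 49.7 CPM in control, against 45.0, 41.9 and 48.4 CPM under NF-YA RNAi. All 3 RNAi libraries were below all 3 controls, though control library 3 and RNAi library 5 were close. The log2 fold change was -0.25 (95% interval -0.48 to -0.01), which did not pass after adjustment (edgeR, adjusted p = 0.152). The gene shares 1673 exonic bases with the antisense RNA asRNA:CR31429, which had at most 0.0856 CPM in any library. The strand setting of the counting is not given in the sources used here.

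The receptor gene N (X, 3134870 to 3172221, plus strand) was expressed at 273, 235 and 184 CPM in control, against 183, 155 and 168 CPM under NF-YA RNAi. Control library 3 and RNAi library 2 were nearly equal. In the authors' deposited normalized values they changed places (19255 and 19331), so whether the groups of N overlap depends on the values used. The means were 231 ± 45.1 and 169 ± 13.7 CPM (SD, n = 3 each). This gave a log2 fold change of -0.45 (95% interval -0.77 to -0.13), which missed the threshold (edgeR, adjusted p = 0.0636). N was called lower in 5 of 14 alternative analyses, over which its adjusted p ranged from 0.00787 to 0.199. Without control library 1, the highest, the log2 fold change was -0.31 (adjusted p = 0.197), and without control library 3 it was -0.59 (adjusted p = 0.0132).

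Of the 3 nuclear components, mam passed the threshold and Su(H) and H did not. Su(H) binds the enhancers of the target genes and is the common platform of activation and repression. Su(H) (2L, 15039488 to 15043334, plus strand) had 4.0, 6.29 and 5.07 CPM in control, against 4.06, 6.53 and 3.19 CPM under NF-YA RNAi. Both groups covered nearly the same range, and the log2 fold change of -0.15 (95% interval -0.84 to 0.53, edgeR adjusted p = 0.793) was imprecise.

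The co-repressor gene H (3R, 20621938 to 20628915, plus strand) did not separate the groups. It had 42.3, 41.4 and 38.1 CPM in control, against 37.0, 39.1 and 42.9 CPM under NF-YA RNAi, with the highest and the lowest value both in the RNAi group. Its log2 fold change was -0.03 (95% interval -0.27 to 0.21, edgeR adjusted p = 0.883).

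The co-activator gene mam fell. Mastermind binds the complex of Su(H) and cleaved Notch and recruits a histone acetyltransferase. The gene mam (2R, 13991203 to 14060356, plus strand) had 89.8, 75.3 and 68.6 CPM in control, against 43.4, 49.3 and 38.7 CPM under NF-YA RNAi. Every RNAi library was well below the lowest control. The mean went from 77.9 ± 10.9 to 43.8 ± 5.29 CPM (SD, n = 3 each), which is 56.2% of control. The log2 fold change was -0.83 (standard error 0.13, 95% interval -1.13 to -0.53, edgeR adjusted p = 0.00466). It was called lower in all 14 alternative analyses, with an adjusted p between 1.65e-07 and 0.0252, and its log2 fold change lay between -0.92 and -0.72 with any single library left out. No other gene of the annotation shares exonic bases with mam.

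Among the 4 targets, 1 passed the threshold. E(spl)m3-HLH (3R, 26021823 to 26023127, plus strand), which encodes an HLH repressor, had 430, 349 and 405 CPM in control, against 500, 486 and 530 CPM under NF-YA RNAi. All RNAi libraries exceeded all controls. The mean rose from 394.5 ± 41.2 to 506 ± 22.5 CPM (SD, n = 3 each), or 128% of control, with a log2 fold change of 0.36 (standard error 0.10, 95% interval 0.14 to 0.58, edgeR adjusted p = 0.0411). The call was held with control library 1 left out (log2 fold change 0.42, adjusted p = 0.0461) and lost with any of the other 5 left out. The adjusted p was then 0.129 without control library 2, 0.0674 without control library 3, and 0.0649, 0.0961 and 0.131 without RNAi libraries 2, 4 and 5, with a log2 fold change between 0.28 and 0.38. Over all 14 alternatives it was called in 8.

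E(spl)malpha-BFM (3R, 26010893 to 26011568, plus strand), a Bearded family gene, had 237, 258 and 206 CPM in control, against 206, 137 and 150 CPM under NF-YA RNAi. RNAi library 2 was as high as control library 3, and the other RNAi libraries were lower than every control. The means were 234 ± 26.4 and 164 ± 36.6 CPM (SD, n = 3 each). The log2 fold change of -0.51 (95% interval -0.86 to -0.16) missed the threshold (edgeR, adjusted p = 0.0579). It was called lower in 6 of 14 alternatives (adjusted p between 0.00439 and 0.197), among them without RNAi library 2 (log2 fold change -0.71, adjusted p = 0.00911) and without control library 3 (-0.59, adjusted p = 0.0488).

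E(spl)mbeta-HLH (3R, 26005046 to 26006023, minus strand), a further HLH repressor gene, had 1064, 899 and 959 CPM in control, against 986, 890 and 911 CPM under NF-YA RNAi. The groups overlapped throughout. The log2 fold change of -0.07 had the narrowest interval of the 10, from -0.27 to 0.13 (edgeR, adjusted p = 0.680).

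The remaining target, klu (3L, 10981171 to 11009188, minus strand), encodes a zinc-finger repressor expressed in enteroblasts. It had 326, 261 and 223 CPM in control, against 261, 257 and 291 CPM under NF-YA RNAi, with the RNAi values all inside the control range. The means, 270.0 ± 51.7 and 269.5 ± 18.5 CPM (SD, n = 3 each), were nearly equal, and the 95% interval of the log2 fold change ran from -0.31 to 0.30 (edgeR, adjusted p = 0.995).

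**Figure D2:**
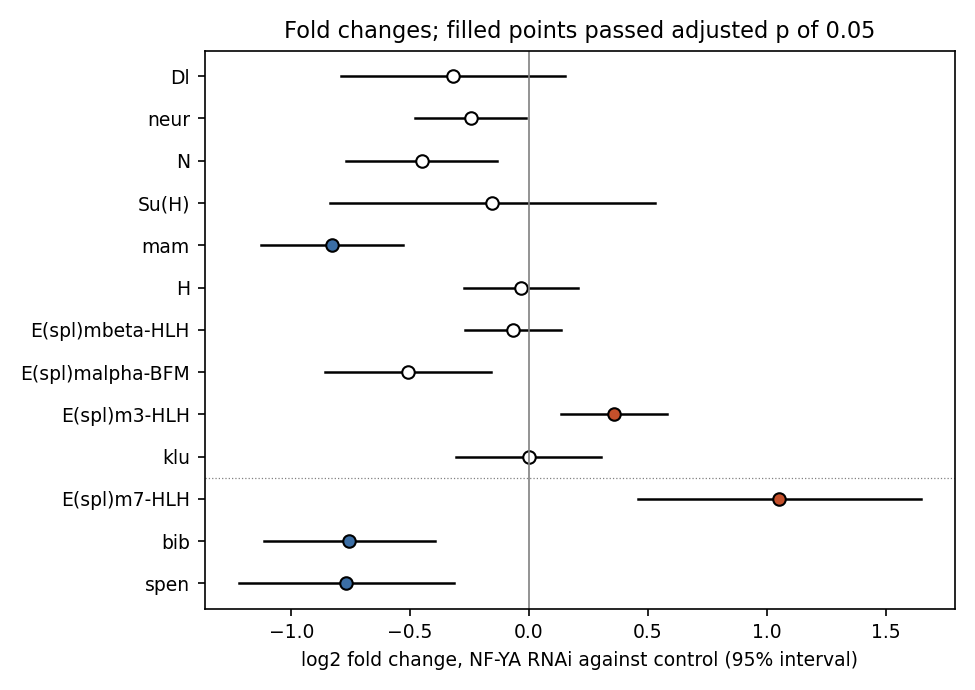
Log2 fold changes under NF-YA RNAi, relative to control, with 95% intervals from the edgeR fit, for the 10 Notch genes (above the dotted line) and the 3 further genes of the Notch pathway list that passed the threshold (below it). Filled points passed an adjusted p of 0.05, and these were mam at -0.83, E(spl)m3-HLH at 0.36, E(spl)m7-HLH at 1.05, bib at -0.76 and spen at -0.77.

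To compare levels between genes, TPM, a level per transcript length, was summed per gene. In control, E(spl)mbeta-HLH was at 1032 ± 54.8 TPM (SD, n = 3), rank 110 of 17609 annotated genes. It was followed by E(spl)malpha-BFM at 412 ± 57.6 TPM, E(spl)m3-HLH at 292 ± 19.5 TPM and klu at 55.2 ± 9.59 TPM. The pathway components were lower than all 4 targets, with N at 19.7 ± 3.77 TPM, neur at 12.7 ± 1.19 TPM, mam at 10.2 ± 1.39 TPM and H at 8.70 ± 0.67 TPM. At the lower end were Dl at 2.13 ± 0.33 TPM and Su(H) at 1.70 ± 0.45 TPM, at ranks 6072 and 6343. In this order, mam and H, and Dl and Su(H), had overlapping library values in control and were not separated beyond their spread.

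In NF-YA RNAi, the order changed at 2 places. E(spl)m3-HLH, at 399 ± 17.1 TPM, was above E(spl)malpha-BFM, at 308 ± 69.4 TPM. The co-activator gene mam, at 6.24 ± 0.65 TPM, was below the co-repressor gene H, at 8.67 ± 0.57 TPM. In TPM, mam had 11.5, 10.3 and 8.77 in control against 8.70, 9.37 and 8.04 for H, and 6.12, 6.94 and 5.64 in NF-YA RNAi against 8.26, 8.42 and 9.33 for H. Thus mam was above H in every control library and below H in every RNAi library. The other neighbours kept their order, and the values of Dl (1.71 ± 0.37 TPM) and Su(H) (1.61 ± 0.61 TPM) again overlapped.

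The balance among the 3 E(spl) genes was compared as ratios of their TPM within each library, which do not depend on the scaling between libraries. These ratios were chosen after the values had been seen. The ratio of E(spl)m3-HLH to E(spl)malpha-BFM was 0.763, 0.573 and 0.83 in control and 1.02, 1.5 and 1.48 in NF-YA RNAi libraries. E(spl)m3-HLH was thus the lesser of the pair in every control library and the greater in every RNAi library, a difference of 0.88 in the mean log2 ratio. The ratio of E(spl)m3-HLH to E(spl)mbeta-HLH was 0.282, 0.272 and 0.295 in control and 0.354, 0.382 and 0.406 in NF-YA RNAi libraries, a log2 difference of 0.43. The ratio of E(spl)malpha-BFM to E(spl)mbeta-HLH was 0.37, 0.475 and 0.356 in control and 0.347, 0.255 and 0.274 in NF-YA RNAi libraries, a log2 difference of -0.46. The groups did not overlap in any of these ratios. They are given as a description with no test, and the third follows from the other two.

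The 3 E(spl) genes lie within 18082 bases of chromosome arm 3R, inside a complex of 11 genes that spans 43388 bases (25997621 to 26041008). The other 8 genes of the complex were below 16 CPM in every library. Of these, E(spl)m7-HLH rose, with 7.66, 4.80 and 4.61 CPM in control, against 9.46, 10.2 and 15.8 CPM under NF-YA RNAi (log2 fold change 1.05, standard error 0.27, edgeR adjusted p = 0.0294). It encodes an HLH repressor, like E(spl)m3-HLH. All its RNAi libraries exceeded all controls, but its call was lost with control library 2 (adjusted p = 0.0953) or 3 (0.0763) or RNAi library 4 (0.0606) or 5 (0.0974) left out. E(spl)m2-BFM had 0.28, 0.174 and 0.218 CPM in control, against 0.026, 0.106 and 0.013 CPM under NF-YA RNAi, low values throughout, and was not called (adjusted p = 0.365). E(spl)m4-BFM failed the filter, and the remaining 5 genes of the complex had overlapping groups. Summed over all 11, the complex had 1516 to 1744 CPM in control, against 1530 to 1708 CPM under NF-YA RNAi, so the totals overlapped.

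**Figure D3:**
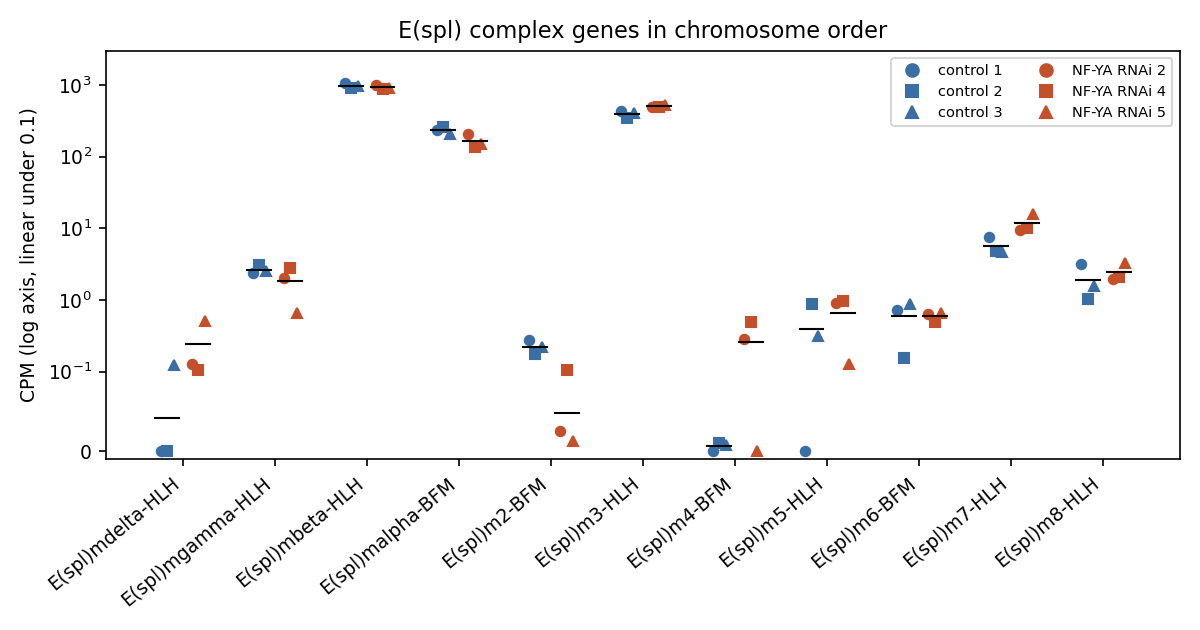
Expression of the 11 E(spl) complex genes in their order on the chromosome, in CPM on an axis that is logarithmic above 0.1 and linear below, with 1 point per library and a bar at each group mean. The 3 abundant genes stand at 137 CPM or more in all 6 libraries and the other 8 below 16 CPM, and the E(spl)m7-HLH points of NF-YA RNAi (9.46 to 15.8 CPM) lie above those of control (4.61 to 7.66 CPM).

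Several of the 10 genes have more than 1 annotated transcript, and the Salmon estimates were examined by transcript as a description without a test, since they divide reads that transcripts share. The decrease of mam was found in both of its main transcripts, which encode the same coding length of 4782 bases. The transcript mam-RA had 69.1, 59.3 and 47.2 CPM in control, against 30.9, 41.5 and 29.8 CPM under NF-YA RNAi. The transcript mam-RB had 19.3, 15.4 and 20.6 CPM in control, against 11.7, 7.35 and 7.81 CPM under NF-YA RNAi. For each, the groups did not overlap. A short transcript, mam-RC, with a coding length of 1299 bases, held at most 2.95% of the gene's counts in any library, and mam-RD was at 0 in all 6.

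The 2 main transcripts of neur differed in pattern. The transcript neur-RE had 26.7, 32.6 and 26.0 CPM in control, against 20.1, 20.6 and 23.6 CPM under NF-YA RNAi, without overlap. In contrast, neur-RB, which starts at another site and has a longer coding sequence (2259 against 2016 bases), had 21.7, 23.3 and 23.7 CPM in control, against 21.4, 21.2 and 24.8 CPM under NF-YA RNAi. The difference in the neur total therefore lay mainly in neur-RE.

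For Dl, the 3 transcripts have the same coding length (2499 bases) and differ at their 3′ ends. The transcript Delta-RB had 8.09, 8.35 and 5.94 CPM in control, against 3.10, 4.81 and 5.31 CPM under NF-YA RNAi, without overlap. Delta-RC was at 0 in the 3 control libraries and in RNAi library 4, but held 34.7% and 25.8% of the Dl counts in RNAi libraries 2 and 5. With at most 1162 counts for the gene in a library, such shares are imprecise. For N, N-RB held 73.9% to 94.5% of the counts in every library, and for klu the share of klu-RC ran from 26.4% to 41.2% in control and from 28.1% to 55.7% in NF-YA RNAi. The 3 abundant E(spl) genes have 1 transcript each.

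**Figure D4:**
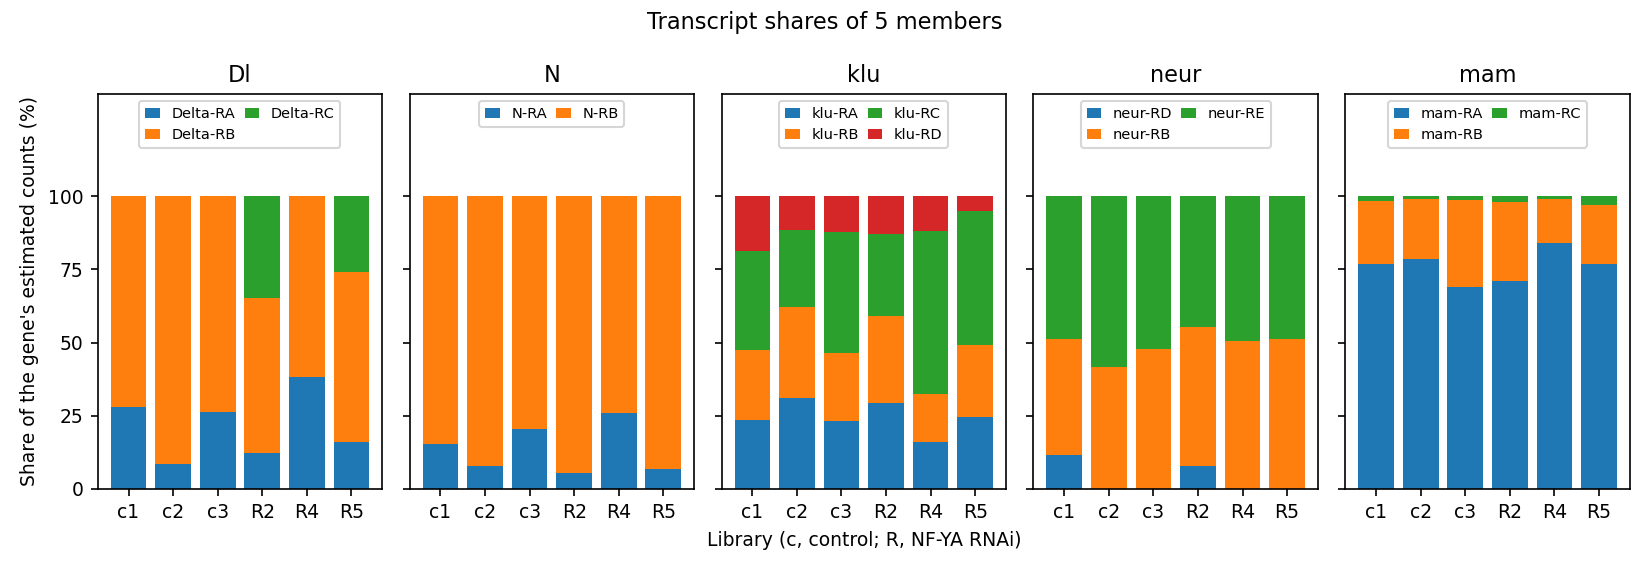
Share of each gene's estimated counts assigned to its transcripts, in percent, for Dl, N, klu, neur and mam, with 1 bar per library (c, control; R, NF-YA RNAi). For mam, the shares of mam-RA and mam-RB overlap between the groups, and Delta-RC appears in RNAi libraries 2 and 5 only.

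The wider pathway was examined with a list of 54 further Notch genes, of which 45 were tested. Of these, 1 rose (2.22% beside 6.19% of all genes) and 2 fell (4.44% beside 8.02%), with a median log2 fold change of 0.01. Besides E(spl)m7-HLH, the 2 that fell were bib and spen. The gene bib, a neurogenic gene for a channel-like membrane protein, had 136, 144 and 106 CPM in control, against 94.0, 68.5 and 66.6 CPM under NF-YA RNAi. Its log2 fold change was -0.76 (standard error 0.16, edgeR adjusted p = 0.0155). The gene spen, which encodes an RNA-binding transcriptional regulator, had 200, 139 and 109 CPM in control, against 103, 79.1 and 81.2 CPM under NF-YA RNAi. On the log2 scale it fell by 0.77 (standard error 0.20, adjusted p = 0.0343). The groups of both genes did not overlap. Their calls held without control library 3 or RNAi library 2 and were lost without any of the other 4, with an adjusted p between 0.0520 and 0.0723 for bib and between 0.0637 and 0.123 for spen. In these 4 fits bib stayed between -0.72 and -0.65, whereas spen was at -0.50 without control library 1, its highest control, and between -0.82 and -0.70 in the other 3.

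**Figure D5:**
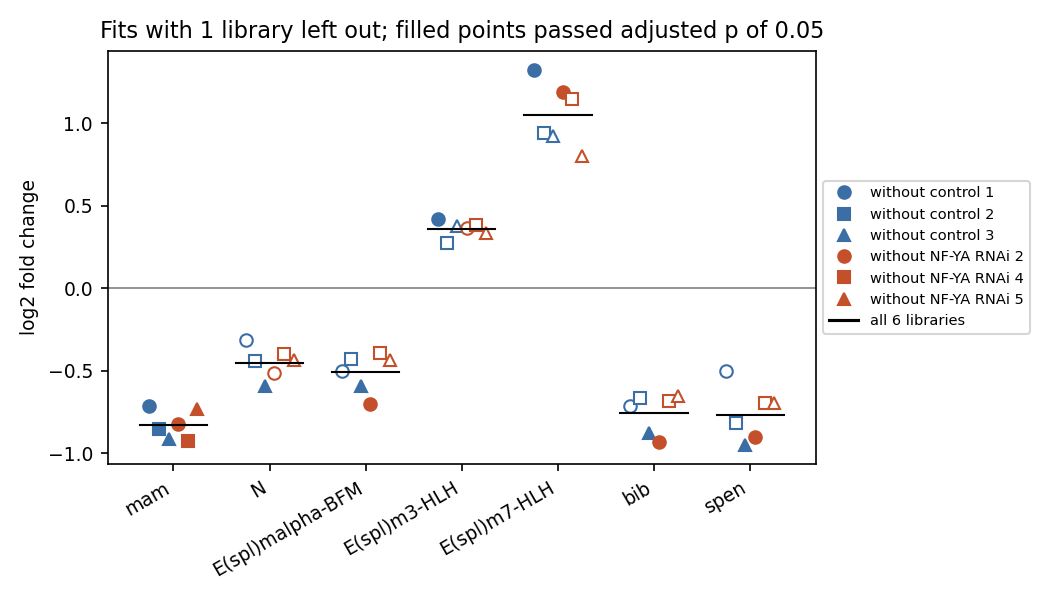
Log2 fold changes under NF-YA RNAi, relative to control, with 1 library left out at a time (points, coloured by the group of the library left out) and with all 6 libraries (bars), for 4 of the 10 Notch genes and the 3 called genes of the pathway list. Filled points passed an adjusted p of 0.05. The mam points are filled in all 6 fits, and those of E(spl)m3-HLH in 1, while the sign of each gene is the same in every fit.

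By role, no gene of receptor cleavage (8 tested), of sugar modification of the receptor (3) or of receptor turnover (4) was called in the main fit. Over all roles, 11 of the 45 tested list genes had groups that did not overlap, against 35.9% of all genes tested. The protease gene kuz, which makes the first ligand-induced cut of Notch, had 292, 215 and 170 CPM in control, against 174, 177 and 144 CPM under NF-YA RNAi. The groups overlapped (log2 fold change -0.45, adjusted p = 0.125), and it was called lower in 2 of 14 alternatives. The furin gene Fur2 was at -0.44 on the same scale (adjusted p = 0.131, called lower in 1 of 14). The presenilin gene Psn, the catalytic part of γ-secretase, had 78.8, 72.0 and 70.8 CPM in control, against 83.5, 85.4 and 89.7 CPM under NF-YA RNAi, without overlap (log2 fold change 0.22, adjusted p = 0.147, called higher in 1 of 14). O-fut1, which adds O-fucose to Notch, had 1.68, 3.19 and 4.0 CPM in control, against 7.19, 4.39 and 9.62 CPM under NF-YA RNAi, also without overlap (log2 fold change 1.26, adjusted p = 0.0522), and it was called higher in 7 of 14 alternatives. Among the 8 genes of ligand and receptor trafficking, mib2 and Nak had groups that did not overlap, with log2 fold changes of -0.23 and -0.22, and neither was called (adjusted p = 0.115 and 0.381). Among the 9 nuclear cofactors, Smr (log2 fold change -0.43, adjusted p = 0.138) and CycC (0.73, adjusted p = 0.218) had groups that did not overlap. Neither was called, though Smr was lower in 1 of 14 alternatives, and skd, of the Mediator complex, with overlapping groups (-0.43, adjusted p = 0.0794), was called lower in 5. The general co-repressors gro and CtBP had log2 fold changes of 0.02 and 0.03, and nej, the histone acetyltransferase gene, had -0.20 (adjusted p = 0.423).

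Of the targets listed outside the E(spl) complex, dpn and Hey were tested and neither was called (log2 fold changes of -0.01 and 0.39). The genes Brd, Tom, Ocho, BobA and Her had 0 counts in all 6 libraries, which allows up to 0.0378 CPM at the depth of the smallest library. The proneural genes sc and ase were under 0.6 CPM in every library, ac had 0 counts, and l(1)sc failed the filter. Their partner da had 223, 222 and 206 CPM in control, against 193, 173 and 194 CPM under NF-YA RNAi, without overlap (log2 fold change -0.22, adjusted p = 0.149). The gene emc, whose product binds and inhibits such partners, had 44.6, 47.1 and 43.9 CPM in control, against 61.1, 44.7 and 74.2 CPM under NF-YA RNAi. These overlapped, since RNAi library 4 lay inside the control range (log2 fold change 0.41, adjusted p = 0.132), and emc was called higher without that library.

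Markers of the midgut cell types also differed between the groups. Over all genes tested, 6.19% rose and 8.02% fell. Of 7 ISC markers, including Dl, 2 fell, and these were esg (283, 309 and 245 CPM in control, against 197, 173 and 175 CPM under NF-YA RNAi, log2 fold change -0.62, adjusted p = 0.00714) and mira (log2 fold change -0.44, adjusted p = 0.0241). The most abundant of the 7, Sox100B, was at -0.11 (adjusted p = 0.5), and 2, spdo and sc, had positive fold changes. The 7 summed to 1854 to 2268 CPM in control, against 1621 to 1716 CPM under NF-YA RNAi, without overlap. Of 6 enteroblast markers, 4 of which are the targets above, E(spl)m3-HLH was the 1 that rose, and Sox21a was at -0.16 (adjusted p = 0.285). Their summed level was 2254 to 2506 CPM in control, against 2180 to 2415 CPM under NF-YA RNAi, so it overlapped. All 14 enteroendocrine markers had negative fold changes and 6 (42.9%) were called lower. Among these 6 were NPF (log2 fold change -1.46, adjusted p = 0.0137) and IA-2 (-1.15, adjusted p = 0.0115). The third leading marker, Tk, was not called (-0.72, adjusted p = 0.0654). The 14 summed to 2466 to 3102 CPM in control, against 749 to 1654 CPM under NF-YA RNAi. Of 16 enterocyte markers, 15 had negative fold changes and 8 were called lower, the 2 amylase genes Amy-p and Amy-d among them (-2.56 and -2.49), with a sum of 1829 to 5005 CPM in control, against 329 to 1356 CPM under NF-YA RNAi. A further leading marker, Jon65Aiv, had overlapping groups and was not called (-1.665, adjusted p = 0.116). The 1 with a positive fold change was nub, higher without overlap but not called (0.54, adjusted p = 0.107). Control library 1 had the highest enterocyte sum and also the highest value among the controls for 7 of the 10 Notch genes, mam and N among them. Without this library mam had a log2 fold change of -0.72 (adjusted p = 0.0174).

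Visceral muscle markers summed to 10.3 to 47.9 CPM in control, against 7.56 to 13.1 CPM under NF-YA RNAi, and 1 of the 10 was called lower. Of 5 hemocyte markers, 3 were tested, and 2 of these had negative fold changes (1 called higher, 1 called lower). The hemocyte receptor gene eater was at 0 in all 6 libraries. Hemocyte markers summed to 7.13 to 14.6 CPM in control, against 4.73 to 7.47 CPM under NF-YA RNAi. All 5 neuron markers had negative fold changes and none was called (44.9 to 52.8 CPM in sum in control, 26.2 to 38.4 CPM in NF-YA RNAi). Of 4 tested tracheal markers, 3 had negative fold changes and 1 was called lower (109.7 to 123.3 CPM in sum in control, 92.9 to 105.8 CPM in NF-YA RNAi). The part of these cell types in the differences of mam, E(spl)m3-HLH, bib and spen was not tested.

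The authors' deposited normalized values were compared for the same genes. Within a library their ratio to CPM differs between genes, so they differ from CPM by more than the scaling of libraries. In them mam had 9484, 7770 and 7040 in control and 4584, 5186 and 4265 in NF-YA RNAi libraries, and E(spl)m3-HLH had 45381, 36413 and 42589 in control and 52826, 51195 and 56310 in NF-YA RNAi libraries. For both genes the groups again did not overlap. The groups were apart for 3 of the 10 genes in these values (mam, neur and E(spl)m3-HLH). The mean was lower in NF-YA RNAi for 9 of the 10, as in CPM. Among these, klu was nearly equal (28444 in control and 28406 in NF-YA RNAi), and its limma log2 fold change on these values was 0.012. The share of all genes with groups apart was not counted in these values, and in CPM it was 35.9%.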

How the data were processed

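Per the methods, the authors trimmed reads with Trim Galore, aligned them with STAR and deposited Salmon's estimated counts for 34989 transcripts in each library. The submitters' processing notes instead name FastQC 0.11.2, Trimmomatic 0.33, TopHat2 2.1.0, HTSeq 2.7.6 and limma 3.28.8. TPM values were deposited by the authors in the same files and were used here for levels between genes. A gene table of 8470 rows, as deposited, holds signal values (gene counts after library normalization) beside the authors' log2 fold changes and p-values. The comparison columns were not used.

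Estimated counts were summed to 17609 genes of BDGP6.54 (Ensembl release 115). The 44 transcripts without a gene, at most 0.345% of a library, were left out of all fits. Sums were rounded, filtered with filterByExpr, normalized with TMM and tested by the quasi-likelihood method of edgeR (version 4.0.16, in R 4.3.3), with Benjamini-Hochberg adjustment over 9080 genes. Alternatives were DESeq2 1.42.0, limma 3.58.1 (log2 with a pseudocount of 1), other scalings and filters, transcript length offsets, a replicate block and each library left out. Summaries used pandas 2.3.3 in Python 3.11.15, and plots matplotlib 3.10.9. Every pair of libraries differed by more than counting noise (lowest chi-square divided by its degrees of freedom, 69.7). Floors of 3 counts cover counting error only.

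The 10 genes and all lists were chosen with earlier results of these data known. Named were the 10 genes, Nf-YA, esg, genes of the pathway list that were called, failed the filter or had groups without overlap, and the leading enteroendocrine and enterocyte markers. Leading markers of the other lists, except those given next, and correlated genes were left out. The genes gro, CtBP, nej, dpn, Hey, sc, ase, Sox21a, Sox100B, spdo, mira, nub, eater, kuz, Fur2, skd and emc were named in addition after their values were seen.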

Additional observations from a re-analysis of the deposited data

How the results depend on the processing

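Over the 14 alternatives, mam was lower and called in every one. With DESeq2, without a low-count filter and with at least 10 counts in every library, 3 of the 10 Notch genes were called lower (E(spl)malpha-BFM, N and mam), and with limma on the deposited values 2 (E(spl)malpha-BFM and mam). Over all genes, 1019, 836 and 846 were called lower in these settings and 737 with limma, against 728 in the main fit. The titles share the numbers 1 and 2 between the groups, but deviations of same-numbered libraries did not correlate (r = 0.03 and -0.01). With these numbers as a replicate block, control library 3 and RNAi library 5 had no partner. The group difference in this fit therefore rested on control libraries 1 and 2 and RNAi libraries 2 and 4. With the block, 2 Notch genes were called lower (N and mam) and 0 higher, and 0 pathway list genes higher. Over all genes, 271 were then called higher and 516 lower, against 562 and 728 in the main fit. The number of pathway list genes called higher was 2 with DESeq2, no filter, the minimum of 10 counts or limma, and 3 with library size only. In the same order, 839, 616, 659, 628 and 784 of all genes were called higher. With DESeq2, 5 list genes were called lower (Smr, bib, kuz, skd and spen).

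With 1 library left out, 188 to 507 genes were called higher and 314 to 736 lower. Of the Notch genes, 0 to 1 were then called higher and 1 to 3 lower, and of the list genes 0 to 2 higher and 0 to 4 lower. Scaling by library size only gave 784 genes higher and 541 lower, against 562 and 728, and moved the median log2 fold change of all genes by 0.09.

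Signs turned only for genes that were not called. The log2 fold change of Su(H) was 0.038 with the block and ran from -0.497 to 0.064 with 1 library left out (0.02 without control library 2, 0.064 without RNAi library 5). That of H was 0.055 with library size only and ran from -0.079 to 0.013 (without RNAi library 2) with 1 left out, and that of E(spl)mbeta-HLH was 0.022 with library size only. For klu it was 0.004 with DESeq2 and with DESeq2 size factors in edgeR, 0.089 with library size only and 0.012 with limma, and ran from -0.124 to 0.153 (without control library 1) with 1 left out, among them 0.02 and 0.029 without RNAi libraries 2 and 4. For Dl, not called, it was -0.58 with the block, a fit in which control library 3 and RNAi library 5 do not bear on the group difference. The causes of the other shifts were not tested. With 3 libraries a group, Su(H) and Dl, with 253 to 1162 counts in a library, had 95% intervals that reached down to -0.84 and -0.79 on the log2 scale.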
